A study of Homo sapiens with 6 samples.

Results

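Genes of mitosis and chromosome segregation were followed in TE-1 cells with and without overexpression of FGL1. The 40 genes were chosen by function, as spindle, kinetochore, cytokinesis and condensin genes. Of these genes, 40 of 40 were listed by symbol in the deposited table of 12180 protein-coding genes, and 40 of 40 averaged at least 0.5 FPKM in the 6 libraries and were tested.

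TE-1 is an established cell line derived from a human esophageal squamous cell carcinoma (ESCC). RNA-seq was performed on 3 control libraries and 3 libraries of cells overexpressing FGL1, fibrinogen-like protein 1, a secreted protein of the fibrinogen family. The control group is called NC here, because the study's controls carried random nonsense sequences delivered by lentivirus, whereas the sample labels give their genotype as WT. The FGL1-OE group carried an FGL1 lentivirus, and both were kept as puromycin-selected stable TE-1 lines with no irradiation or other agent named in the labels. Nothing in the labels says that the 3 libraries of a group came from separate cultures, so the p-values measure only the spread between these libraries, which may be technical.

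During mitosis the duplicated chromosomes are condensed, attached through their kinetochores to spindle microtubules, and pulled apart once the spindle assembly checkpoint is satisfied. Kinases of the Aurora, Polo and BUB families time these steps, and the anaphase-promoting complex (APC/C) then marks securin and cyclin B for destruction so that separase can open the cohesin rings. Most of these genes are transcribed in G2 and M phase, through promoter elements bound by the MuvB complex with B-MYB and FOXM1, and their mRNA level is widely used as a measure of proliferation in tumors. In bulk RNA, a smaller share of dividing cells and less RNA per dividing cell cannot be told apart.

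FGL1 itself checked the labels. It stood at 0.0202 FPKM in NC 1, was listed at 0 in NC 2 and stood at 0.106 FPKM in NC 3, against 33.5, 39.3 and 39.9 FPKM in FGL1-OE 1 to 3. The log2 fold change of FPKM + 1 was 5.21 ± 0.15 (SE, n = 3 and 3), with an adjusted p of 1.29e-05 by limma and Benjamini-Hochberg adjustment over 12017 genes. FGL1 was the only gene of the 12017 with an adjusted p under 0.05, or 0.00832% of them.

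FPKM values are scaled for transcript length and for the reads of each library, and the depth behind them is unknown. The listed FPKM summed to between 210904 and 226307 per library. The NC 1 and NC 2 libraries stood apart, with a correlation of log2(FPKM + 1) across genes of 0.885 between them, the lowest of any 2 libraries, against 0.950 to 0.986 for pairs within a group that did not join these 2. The epithelial keratins KRT8 and KRT18 were listed at 218 to 505 FPKM, and the squamous keratin KRT6A at 108 to 197 FPKM, whereas KRT5, KRT13, KRT17 and DSG3 stood between 3.16 and 15.8 FPKM. Of the same marker list, SFN stood at 198 to 459 FPKM, EPCAM at 90.5 to 122 FPKM and CDH1 at 32.2 to 62.0 FPKM. TP63, a defining squamous transcription factor, stood at only 0.299 to 0.779 FPKM in any library. Of markers of other cell types, 1 of 5 immune genes, 0 of 4 endothelial genes and 3 of 6 fibroblast genes were listed, COL1A1 highest at 1.42 to 5.55 FPKM.

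Promoter sequences show what the genes share that their choice by function did not use. RefSeq promoters of GRCh38.p14, running from 250 bases before to 50 bases after the annotated start, were matched by symbol for 34 of the 40 genes, and AURKA, BIRC5, BUB3, TPX2, TTK and UBE2C were not matched. The cell cycle gene homology region, CHR, with the letters TTTGAA on either strand, was present in 26 of the 34 promoters, or 76.5%. It was present in 12.9% of the 9312 matched promoters of all genes tested. The CCAAT box, the letters CCAAT on either strand, was present in 25 of 34 promoters, or 73.5%, against 42.9% of all genes tested. It was as frequent in matched promoters of genes of the G1/S transition, at 73.3% of 15, and stood at 61.7% of 94 in other genes of mitosis. Both elements occurred together in 19 promoters, or 55.9%, against 5.47%, and their letters can overlap, as in CDCA8. Matches of letters are a description and do not show that a factor was bound.

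The promoter of CDC20, the activator of the APC/C, is shown whole over the 160 bases before its start because both elements lie close together in it. That of KIF2C, a kinesin that removes tubulin from microtubule ends, is shown over the same 160 bases because these letters do not hold either element, as also in CENPE. Capitals mark the CHR and the CCAAT box on either strand, and each line reads 5′ to 3′ along the gene.
CDC20, chr1:43358821-43358980, plus strand: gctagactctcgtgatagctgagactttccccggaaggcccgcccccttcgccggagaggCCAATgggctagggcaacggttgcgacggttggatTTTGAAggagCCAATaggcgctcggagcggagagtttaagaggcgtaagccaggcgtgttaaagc
KIF2C, chr1:44739677-44739836, plus strand: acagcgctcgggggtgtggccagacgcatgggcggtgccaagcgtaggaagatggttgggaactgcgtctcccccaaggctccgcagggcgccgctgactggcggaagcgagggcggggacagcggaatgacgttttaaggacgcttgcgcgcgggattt

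Short stretches of 30 bases around the CHR of other genes described below let the neighbouring letters be compared. Each has 12 bases on either side of the CHR nearest to the start on its upstream side, on GRCh38.p14.
PLK1, chr16:23678848-23678877, plus strand: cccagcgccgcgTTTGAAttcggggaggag
CENPA, chr2:26786026-26786055, plus strand: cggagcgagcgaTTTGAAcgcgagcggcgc
CDCA8, chr1:37692481-37692510, plus strand: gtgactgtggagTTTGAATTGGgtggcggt
KIF23, chr15:69414282-69414311, plus strand: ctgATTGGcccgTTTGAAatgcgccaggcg
ECT2, chr3:172750599-172750628, plus strand: tcgttgggcttaTTTGAAacacacgcacaa
INCENP, chr11:62123989-62124018, plus strand: tgagccttcagtTTTGAAaatcatagtttt
TOP2A, chr17:40418030-40418059, minus strand: ctgATTGGtttaTTCAAAcaaaccccggcc

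The CHR began 29 bases before the start in PLK1, 18 in CENPA, 23 in CDCA8 and 10 in INCENP, and 151 in TOP2A, where it lies on the opposite strand. In CDCA8 the CHR and a reversed CCAAT box overlap. Over the 26 promoters there were 36 CHR matches, of which 22 began within the 100 bases before the start, and the median position was -27. The 56 CCAAT matches had a median position of -77. Among the 109 other listed genes of mitosis, 94 had a matched promoter and 46.8% of those held the CHR, whereas it was found in 0 of 15 matched promoters of the G1/S genes. Between FGL1-OE and NC, the median log2 fold change was 0.12 for the 26 genes with a CHR and 0.15 for the 8 without.

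**Figure D1:**
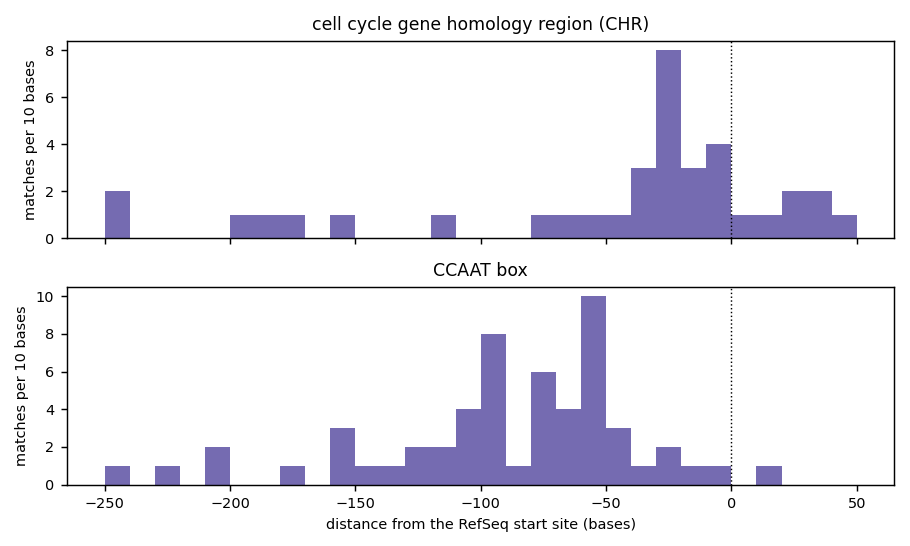
Number of matches of the CHR (upper panel, 36 matches) and of the CCAAT box (lower panel, 56 matches) per 10 bases in the RefSeq promoters of 34 mitosis genes, against the distance from the annotated start in bases (dotted line). The CHR matches gather just before the start, with a median of -27, and the CCAAT matches lie further upstream, with a median of -77.

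Transcripts of all 40 genes were detected in every library, the lowest value being 3.57 FPKM for TTK in NC 1. The mean over the 6 libraries ran from 6.26 FPKM for CENPE, a kinetochore kinesin, to 128 FPKM for TPX2, which activates AURKA on the spindle, with CDC20 at 114 FPKM and UBE2C at 95.5 FPKM next below it. FPKM is a level per transcript length. The order was not the same in every library, since TPX2 was the highest in 5 of 6 and CENPE the lowest in 4 of 6, and in NC 2 ANLN and TOP2A, at 114 and 113 FPKM, stood above UBE2C and CDC20. Summed over the 40 genes, the level was 1069, 1378 and 1257 FPKM in NC 1 to 3 and 1261, 1374 and 1371 FPKM in FGL1-OE 1 to 3. The FGL1-OE sums lay inside the range set by NC 1 and NC 2. As a share of all listed FPKM, the 40 genes made up 0.507%, 0.609% and 0.592% in NC 1 to 3. In FGL1-OE 1 to 3 they made up 0.564%, 0.642% and 0.637%. On that scale FGL1-OE 2 and FGL1-OE 3 stood above every NC library, and FGL1-OE 1 lay between NC 1 and NC 3.

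**Figure D2:**
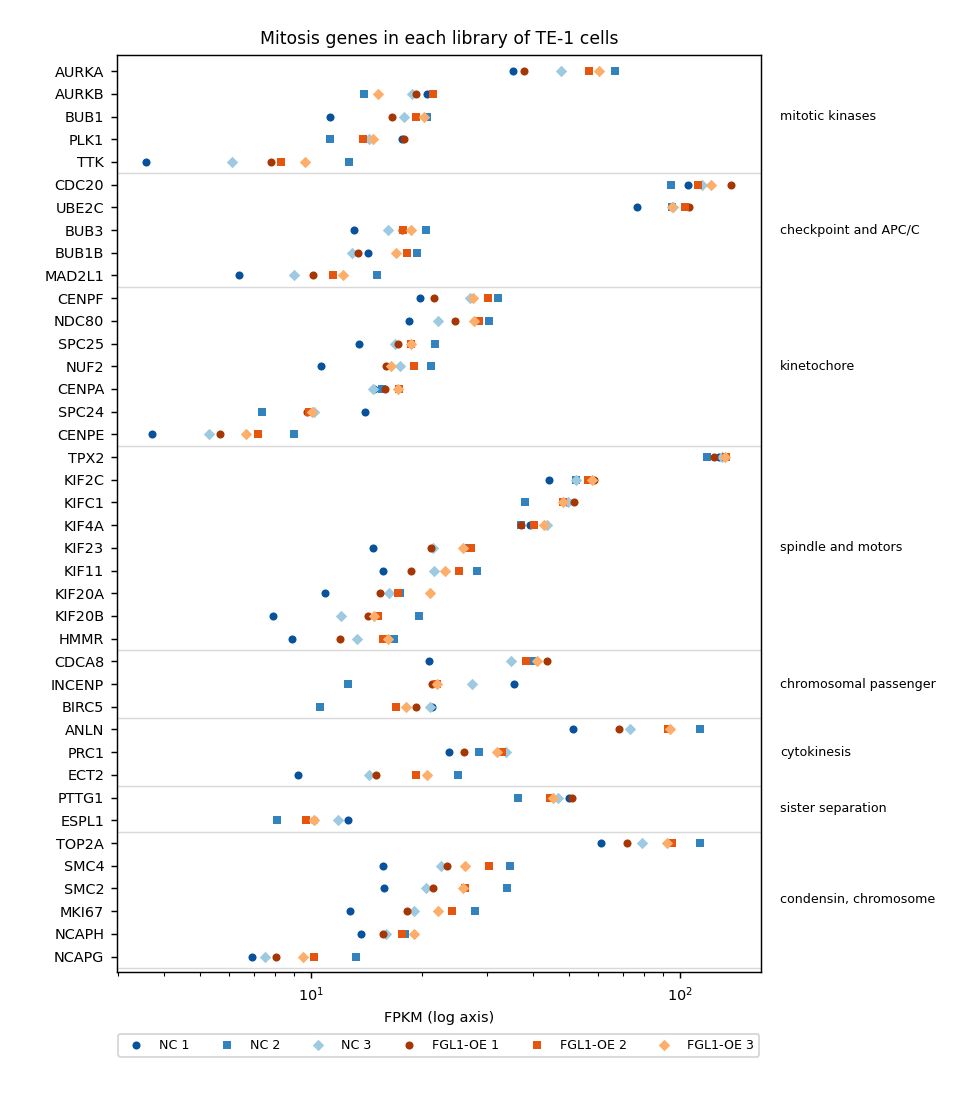
Level of each of the 40 mitosis genes in FPKM (log axis) in the 3 NC libraries (blue) and the 3 FGL1-OE libraries (orange), ordered by role and mean level. NC 3 lies between NC 1 and NC 2 for 31 of 40 genes, and all FGL1-OE values lie within the NC range for 27 of 40.

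No gene of the 40 passed the limma test between FGL1-OE and NC. The number with an adjusted p under 0.05 was 0, the number with an unadjusted p under 0.05 was 0 in either direction (1.21% of all genes tested were higher and 0.807% lower at that level), and the smallest unadjusted p was 0.141. An ordinary linear model also gave 0 at the adjusted level and 1 gene, CENPA, higher at an unadjusted p of 0.0307 (1.72% of all genes higher at that level). The log2 fold changes ran from -0.08 to 0.40 and were above 0 for 37 of 40 genes, against 53.7% of all genes tested. Their median was 0.13, against 0.02 over all genes tested. Only CENPA and KIF2C had all FGL1-OE values above all NC values, or 2 of 40, against 4.09% of all genes, and 0 of 40 had all below, against 3.06%.

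That shared direction depended on which controls were used. Without NC 1 the log2 fold change was above 0 for 19 of 40 genes (47.8% of all genes tested) and the median was -0.01. Without NC 2 it was above 0 for 31 of 40 (54.2% of all genes) with a median of 0.28, and 9 genes were higher and 1, INCENP, lower at an unadjusted p under 0.05, none at an adjusted p under 0.05. The same alternative put 11.2% of all genes higher and 10.6% lower at that level. Without NC 3 it was above 0 for 36 of 40 (55.2% of all genes), and the median was 0.14. With libraries weighted by their scatter, which gave nearly all control weight to NC 3, 1 of 40 genes had an adjusted p under 0.05 by limma (TTK, adjusted p 0.0420), against 11.0% of all genes. At an unadjusted p under 0.05, 14 were then higher and 2 lower, against 17.2% and 16.7% of all genes, and 30 of 40 were above 0, against 50.0%.

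**Figure D3:**
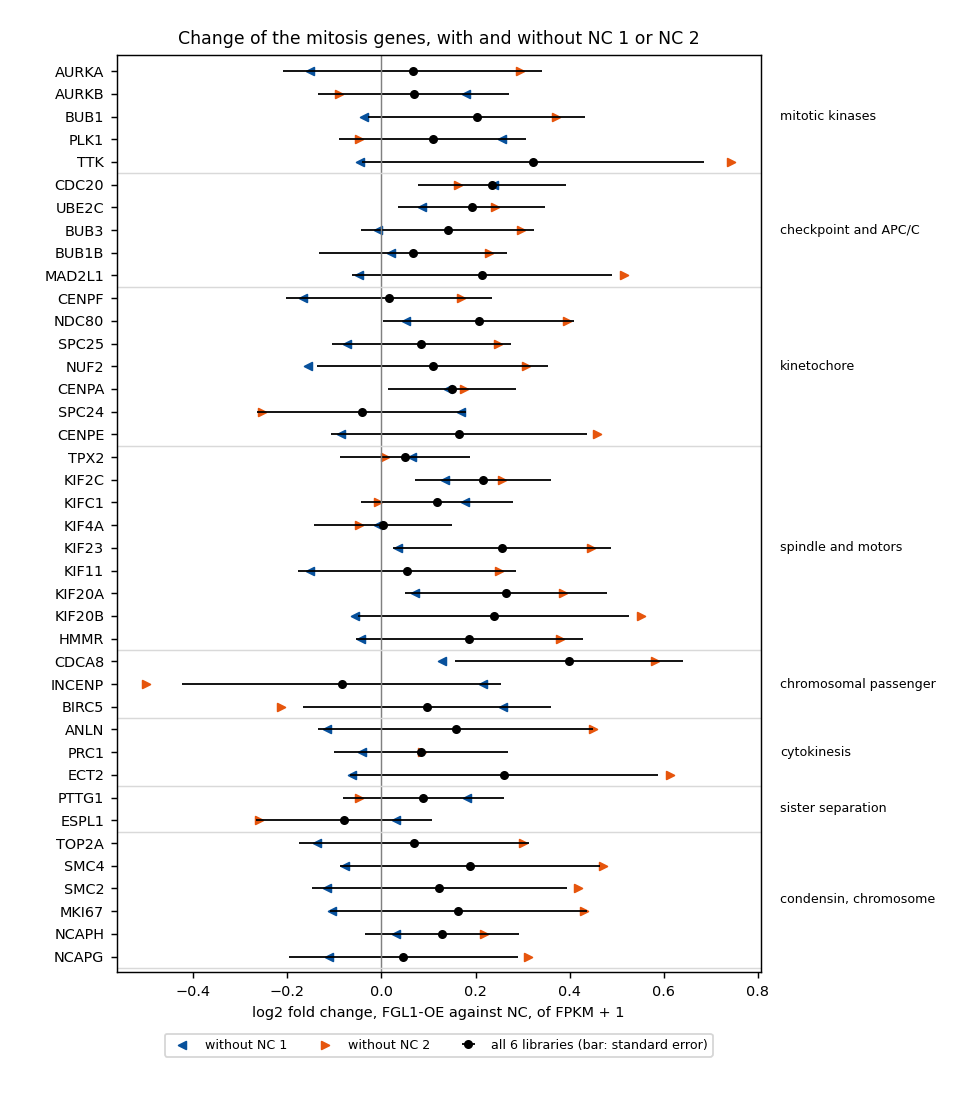
Log2 fold change of FPKM + 1 between FGL1-OE and NC for each of the 40 genes with its standard error (black, all 6 libraries), and the value without NC 1 (blue) or without NC 2 (orange). Removing NC 1 and removing NC 2 move nearly every gene in opposite directions, and the count of genes above 0 is 37 with all libraries and 19 without NC 1.

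The mitotic kinases had log2 fold changes from 0.07 to 0.32. PLK1, the Polo kinase of mitotic entry and spindle assembly, stood at 17.6, 11.2 and 14.4 FPKM in NC 1 to 3 and at 17.9, 13.8 and 14.7 FPKM in FGL1-OE 1 to 3. Its groups overlapped, with a log2 fold change of 0.11 ± 0.20 (SE). AURKB, the kinase of the chromosomal passenger complex, had 20.6, 13.9 and 18.8 FPKM in NC against 19.3, 21.4 and 15.2 FPKM in FGL1-OE, and here too the lowest value was that of NC 2.

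AURKA, the kinase of centrosomes and spindle poles, showed the reverse order of the NC libraries. It had 35.4, 66.8 and 47.6 FPKM in NC and 37.8, 56.9 and 60.3 FPKM in FGL1-OE, with all FGL1-OE values between NC 1 and NC 2. TTK, the MPS1 kinase that starts the spindle checkpoint, was the most uneven of the kinases, at 3.57, 12.7 and 6.11 FPKM in NC against 7.81, 8.29 and 9.64 FPKM in FGL1-OE. Its difference on the log2 scale was 0.32 ± 0.36, and it became -0.05 without NC 1 and 0.74 without NC 2. BUB1, a checkpoint kinase at the kinetochore, had a log2 fold change of 0.20.

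The checkpoint and APC/C genes had log2 fold changes from 0.07 to 0.24. CDC20 stood at 105, 94.6 and 115 FPKM in NC and at 138, 112 and 122 FPKM in FGL1-OE. Only FGL1-OE 2, below NC 3, kept the groups from separating, and the log2 fold change was 0.24 ± 0.16 with an exact two-sided permutation p of 0.2, where 0.1 is the smallest that 3 against 3 libraries allow. UBE2C, the ubiquitin-conjugating enzyme of the APC/C, had 76.7, 95.3 and 95.8 FPKM in NC and 106, 104 and 95.4 FPKM in FGL1-OE, so that the FGL1-OE 3 library fell between NC 2 and NC 3. The checkpoint proteins BUB3, BUB1B and MAD2L1 had log2 fold changes of 0.14, 0.07 and 0.21.

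Among the kinetochore genes, CENPA, the histone H3 variant that marks the centromere (chr2:26987157-27023935 on GRCh37), was the one whose groups did not overlap. It had 14.8, 15.6 and 14.7 FPKM in NC and 15.9, 17.3 and 17.3 FPKM in FGL1-OE. On the log2 scale the difference was 0.15 ± 0.14 with an adjusted p of 1.00 by limma and an exact permutation p of 0.1, and its sign was the same with any library left out. CENPF, a large protein of the outer kinetochore, had 19.8, 32.2 and 27.0 FPKM in NC against 21.6, 30.1 and 27.5 FPKM in FGL1-OE, which gave a log2 fold change of 0.02 that was below 0 under quantile normalization (-0.0001).

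The NDC80 complex ties the kinetochore to microtubules and has 4 subunits among these genes. NDC80, NUF2 and SPC25 had log2 fold changes of 0.21, 0.11 and 0.08, and in each of these NC 1 was the lowest and NC 2 the highest of the 6 libraries. SPC24, the fourth, had the opposite order of the controls, at 14.1, 7.37 and 10.2 FPKM in NC against 9.74, 9.88 and 10.1 FPKM in FGL1-OE. Its FGL1-OE values were nearly equal and lay inside the NC range, and its log2 fold change was -0.04 ± 0.22.

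The spindle and motor genes had log2 fold changes from 0.004 to 0.27. KIF2C (chr1:45205490-45233439 on GRCh37) had 44.1, 52.3 and 52.5 FPKM in NC and 58.6, 56.5 and 57.8 FPKM in FGL1-OE. Every FGL1-OE value was above every NC value, with a log2 fold change of 0.22 ± 0.14, an adjusted p of 1.00 by limma and an exact permutation p of 0.1. KIF4A, a chromosome-borne kinesin of the central spindle, had 39.3, 37.1 and 43.6 FPKM in NC against 37.1, 40.3 and 42.9 FPKM in FGL1-OE, with a change of 0.004 ± 0.15 on the log2 scale that was below 0 after scaling to a common sum (-0.003).

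KIF20A and KIF23 are kinesins of the central spindle and cytokinesis. KIF20A had 10.9, 17.4 and 16.3 FPKM in NC and 15.4, 17.2 and 21.1 FPKM in FGL1-OE. KIF23 had 14.7, 26.8 and 21.4 FPKM in NC and 21.1, 27.1 and 25.8 FPKM in FGL1-OE. Both had overlapping groups with NC 1 the lowest library, and their log2 fold changes of 0.27 ± 0.22 and 0.26 ± 0.23 became 0.07 and 0.03 without NC 1. The spindle genes KIF11, KIF20B, KIFC1, TPX2 and HMMR had log2 fold changes of 0.05, 0.24, 0.12, 0.05 and 0.19.

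The chromosomal passenger genes, which encode the partners of AURKB, held both ends of the range. CDCA8, the subunit borealin, had the highest log2 fold change of the 40, with 20.9, 40.0 and 35.0 FPKM in NC and 43.8, 38.3 and 41.1 FPKM in FGL1-OE. NC 1 stood far below the other 5 libraries, NC 2 overlapped the FGL1-OE values, and the log2 fold change of 0.40 ± 0.24 became 0.13 without NC 1.

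INCENP, the scaffold of the complex, had the lowest value of the 40. It stood at 35.6, 12.6 and 27.3 FPKM in NC against 21.2, 22.0 and 22.0 FPKM in FGL1-OE. The FGL1-OE libraries were nearly equal and lay between NC 2 and NC 3, and the log2 fold change of -0.08 ± 0.34 became 0.22 without NC 1 and -0.50 without NC 2. BIRC5, survivin, had 21.3, 10.6 and 21.0 FPKM in NC against 19.3, 17.0 and 18.1 FPKM in FGL1-OE, with NC 2 the lowest library, and a log2 fold change of 0.10 ± 0.26.

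The cytokinesis genes PRC1, ECT2 and ANLN had all FGL1-OE values inside the NC range. ECT2, the exchange factor that activates RhoA at the cleavage furrow, had 9.22, 25.1 and 14.3 FPKM in NC and 15.0, 19.3 and 20.6 FPKM in FGL1-OE. Its difference on the log2 scale was 0.26 ± 0.33, and -0.06 without NC 1. PRC1, which bundles microtubules of the central spindle, and ANLN, the furrow scaffold anillin, had log2 fold changes of 0.08 and 0.16. Of the genes of sister separation, ESPL1, separase, had 12.6, 8.08 and 11.8 FPKM in NC against 10.2, 9.72 and 10.2 FPKM in FGL1-OE, which gave a log2 fold change of -0.08 ± 0.19, and PTTG1, securin, had one of 0.09.

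Condensin and chromosome genes had log2 fold changes from 0.05 to 0.19, with NC 1 the lowest and NC 2 the highest of the controls in 6 of 6. TOP2A, the topoisomerase that untangles sister chromatids, had 61.3, 113 and 79.1 FPKM in NC and 72.1, 95.3 and 92.6 FPKM in FGL1-OE. MKI67, the coat protein of mitotic chromosomes known as Ki-67, had 12.8, 27.9 and 19.0 FPKM in NC and 18.2, 24.1 and 22.2 FPKM in FGL1-OE. In both the FGL1-OE values lay between NC 1 and NC 2, with log2 fold changes of 0.07 ± 0.25 and 0.16 ± 0.27. The condensin subunits SMC2, SMC4, NCAPG and NCAPH had log2 fold changes of 0.12, 0.19, 0.05 and 0.13.

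The NC libraries spread more than the FGL1-OE libraries. The median SD of log2(FPKM + 1) over the 40 genes was 0.41 in NC and 0.14 in FGL1-OE, and the NC SD was the larger in 38 of 40 genes. Over all genes tested the medians were 0.31 and 0.12. All FGL1-OE values lay inside the NC range for 27 of the 40 genes, or 67.5%, against 57.0% of all genes.

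GC content of the transcripts moved with this spread. The 40 genes had a median GC content of 46.3%, against 50.2% for all genes tested, and ran from 34.2% for KIF20B to 59.8% for INCENP. The difference between NC 2 and NC 1 in log2(FPKM + 1) had a Spearman rho of -0.82 with GC content across the 40 genes and -0.79 across 11786 genes tested. Genes are not independent replicates, and all points come from the same 2 libraries. In the 20 genes of lower GC content, NC 2 was the highest control in 20 of 20 and NC 1 the lowest in 19, the median difference between them was 0.89, and all FGL1-OE values lay inside the NC range in 19. In the 20 of higher GC content, NC 2 was the highest control in 6, the median difference was -0.10, and the FGL1-OE values lay inside the NC range in 8. Over all genes split at the same GC content, NC 2 was the highest control in 3837 of 4348 below and 1690 of 7438 above. The median difference was 0.69 below and -0.28 above, and the FGL1-OE values lay inside the NC range for 66.9% and 51.6%.

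The direction of the change followed the same split once a control was left out, among all genes tested as well. With all 6 libraries the log2 fold change was above 0 for 20 of the 20 genes of lower GC content and 17 of the 20 of higher GC content. Among all genes, split at the same GC content, the shares above 0 were then 67.5% below and 45.8% above. Without NC 1 the log2 fold change was above 0 for 3 of the 20 genes of lower GC content and for 16 of the 20 of higher GC content. Over all genes, split at the same GC content, it was above 0 for 25.8% below and 60.5% above. Without NC 2 it was above 0 for 20 and 11 of them, against 86.4% and 35.6% of all genes. After the trend with GC content and length was removed from each library, 30 of 40 genes were above 0 (50.3% of all genes), the median was 0.08, and 1 gene, CDC20, was higher at an unadjusted p of 0.0484 (3.17% of all genes) with an adjusted p of 0.772 by limma. Whether GC content caused the spread between the libraries was not tested.

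**Figure D4:**
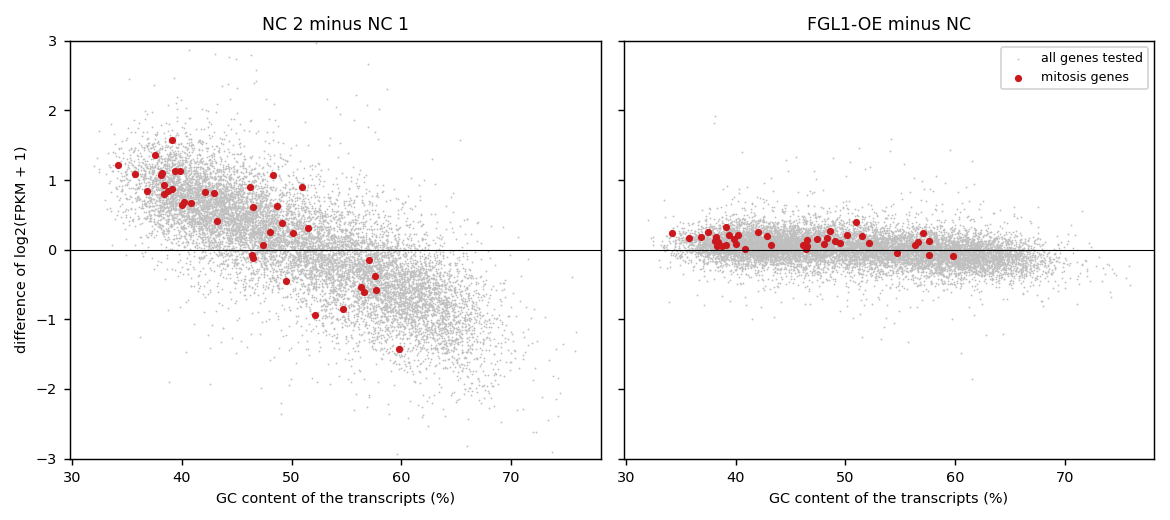
Difference of log2(FPKM + 1) between NC 2 and NC 1 (left) and between the FGL1-OE and NC means (right) against the GC content of the transcripts in percent, for the mitosis genes (red, 40 genes) and all genes tested (grey). The left cloud slopes down, with a rho of -0.82 over the 40 genes, and the right cloud slopes less, with a rho of -0.24 over the 40 genes and -0.33 over all genes; values beyond 3, such as that of FGL1, are outside the axes.

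A further 116 genes of mitosis were listed by function, and 109 of them were in the gene table. Their median log2 fold change was 0.10 and 82 were above 0 (53.7% of all genes), but leaving out NC 1 gave a median of -0.01 and leaving out NC 2 one of 0.26. By limma 0 had an adjusted p under 0.05, and 3 were higher and 0 lower at an unadjusted p under 0.05 (1.21% and 0.807% of all genes). BORA, the activator of AURKA, had 5.47, 13.7 and 9.29 FPKM in NC and 12.8, 17.0 and 15.4 FPKM in FGL1-OE, with overlapping groups and a log2 fold change of 0.69.

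In 11 of these 109 genes every FGL1-OE value was above every NC value, or 10.1%, against 4.09% of all genes, and in 0 all were below, against 3.06%. CENPH and CENPO, subunits of the inner kinetochore, were among the 11. CENPH had 6.38, 8.78 and 7.69 FPKM in NC and 10.3, 10.2 and 10.3 FPKM in FGL1-OE, which gave a log2 fold change of 0.40. CENPO had 11.1, 11.4 and 6.03 FPKM in NC and 14.4, 13.5 and 13.8 FPKM in FGL1-OE, which gave a log2 fold change of 0.55. In these 3 genes the adjusted p was 1.00 by limma. The value of BORA became 0.38 without NC 1 and 0.97 without NC 2, and that of CENPO 0.29 without NC 3. Of 18 genes of the G1/S transition and DNA replication, 12 were above 0 with a median of 0.13, and 0 passed either threshold in either direction by limma. In 6 of the 18 every FGL1-OE value was above every NC value, or 33.3%, against 4.09% of all genes, and in 0 all were below, against 3.06%. The median of the 18 was 0.12 without NC 1 and 0.12 without NC 2.

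The transcript table listed 145 transcripts of the 40 genes, of which 136 passed the filter. By limma 0 of the 136 had an adjusted p under 0.05 (0.0165% of the 30330 transcripts tested), and the smallest adjusted p was 0.966. At an unadjusted p under 0.05, 2 were higher and 3 lower in FGL1-OE, against 2.05% and 1.48% of all transcripts tested, and an ordinary linear model gave 3 in all (3.65% of all transcripts). The 5 were 2 transcripts of KIF2C and 1 each of CENPA, ECT2 and AURKB, and their groups did not overlap. In all, 5 of the 136 were higher and 3 lower without overlap, against 4.65% and 3.57% of all transcripts.

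KIF2C-202 had 53.1, 61.0 and 33.4 FPKM in NC and 16.8, 10.3 and 22.3 FPKM in FGL1-OE. KIF2C-201 was listed at 0 in NC 1, stood at 4.33 and 30.4 FPKM in NC 2 and NC 3, and at 54.5, 55.3 and 48.1 FPKM in FGL1-OE. The first was lower in all FGL1-OE libraries and the second higher, while the log2 fold change of the gene was 0.22. Those of the transcripts were -1.54 ± 0.38 and 3.28 ± 1.16, with unadjusted p of 0.00607 and 0.029 and adjusted p of 1.00 by limma. The value of KIF2C-201 became 2.05 without NC 1, 4.54 without NC 3 and 1.41 with libraries weighted by their scatter. KIF2C-202 made up 78.5% ± 24.2 (SD, n = 3) of the listed KIF2C transcript FPKM in NC and 22.2% ± 8.71 (SD, n = 3) in FGL1-OE.

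In GENCODE release 29 the 2 KIF2C transcripts differ at the start of the coding sequence. The coding parts of exon 1 (70 bases, chr1:44739933-44740002) and exon 2 (95 bases, chr1:44740913-44741007) of KIF2C-202 on the plus strand of GRCh38 are absent from KIF2C-201, which begins in another exon that holds 3 coding bases of its own. They are shown because they are the coding sequence that tells the 2 transcripts apart, in lower case with nothing marked.
KIF2C-202 exon 1: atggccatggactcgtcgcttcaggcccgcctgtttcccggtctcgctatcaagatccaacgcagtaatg
KIF2C-202 exon 2: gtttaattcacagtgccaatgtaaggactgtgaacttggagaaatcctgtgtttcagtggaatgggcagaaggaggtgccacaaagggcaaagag

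CENPA-201 had 4.10, 2.98 and 1.06 FPKM in NC and 9.55, 8.55 and 10.2 FPKM in FGL1-OE. The groups did not overlap, with a log2 fold change of 1.58 ± 0.38, an unadjusted p of 0.00513 and an adjusted p of 0.966 by limma. CENPA-202 had 2.14, 5.70 and 3.23 FPKM in NC and 3.96, 5.18 and 3.08 FPKM in FGL1-OE, which overlapped. The listed transcript FPKM of CENPA do not add up to its gene FPKM, and the reason was not tested. The log2 fold change of CENPA from the summed transcripts was 1.01, against 0.15 in the gene table. CENPA-201 lacks exon 3 of CENPA-202, a coding exon of 78 bases and 26 whole codons at chr2:26792756-26792833 on the plus strand of GRCh38, shown as the stretch that separates the 2 transcripts.
CENPA-202 exon 3: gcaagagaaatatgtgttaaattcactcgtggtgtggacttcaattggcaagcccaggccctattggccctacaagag

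ECT2-201 had 6.05, 5.34 and 1.14 FPKM in NC and 0.777, 0.732 and 0.704 FPKM in FGL1-OE, which gave a log2 fold change of -1.40 ± 0.49 that became -0.59 with libraries weighted by their scatter. AURKB-204 had 8.32, 3.49 and 6.57 FPKM in NC and 3.06, 2.57 and 1.10 FPKM in FGL1-OE, which gave a log2 fold change of -1.13 ± 0.40. Both were lower in all 3 FGL1-OE libraries, with unadjusted p of 0.0266 and 0.0286 and adjusted p of 1.00 by limma. The division of reads among transcripts is uncertain here, since the share of 31-base words that no other annotated transcript of that gene contains was 0% for CENPA-201, KIF2C-201 and KIF2C-202, 0.0739% for ECT2-201 and 3.08% for AURKB-204.

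**Figure D5:**
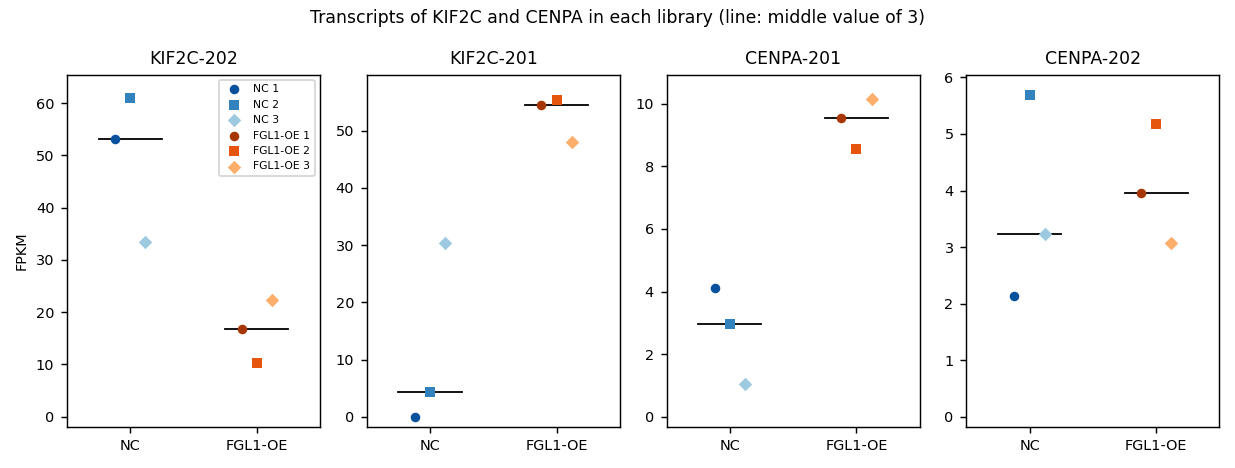
FPKM of KIF2C-202, KIF2C-201, CENPA-201 and CENPA-202 in each NC (blue) and FGL1-OE (orange) library, with the middle of the 3 values as a line. KIF2C-202 is lower and KIF2C-201 and CENPA-201 are higher in all FGL1-OE libraries than in all NC libraries, while CENPA-202 overlaps.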

How the data were processed

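FPKM values were deposited by the authors for every library, covering 12180 genes and 33090 transcripts, all protein-coding. The submitters' processing notes name StringTie and GRCh37, and the aligner is not given in the sources used here. RNA was enriched by poly(A) selection and prepared with a stranded kit. The deposited columns of means, fold changes and p-values were not used.

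Genes with a mean of at least 0.5 FPKM were tested on log2(FPKM + 1), with a pseudocount of 1, by limma 3.58.1 in R 4.3.3 (lmFit, eBayes) without covariates, with Benjamini-Hochberg adjustment over all genes or all transcripts and a threshold of 0.05. A fold change on this scale understates the change of low genes. Single genes also had exact two-sided permutation tests. The code was tested on simulated data. Depth is unknown, since low FPKM times length showed no whole-read steps (strongest period 0.0797 to 0.0912 of 1), so no counting intervals are given.

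The genes and lists were chosen with earlier results of these data known, so no test of a list was made. Values of each library are given for 10 genes chosen by function, for those of the 40 genes at an unadjusted p under 0.05 or without overlap, for their 5 highest and 5 lowest log2 fold changes, for their transcripts that met both conditions, and for other mitosis genes at an unadjusted p under 0.05. Genes of the other lists without overlap are counted only. Of the 5 lowest, only 3 were below 0. Sequences come from RefSeq (GRCh38.p14) and GENCODE release 29 (GRCh38), and GC content was found for 97.7% of genes. KRT14 and PKP1 were also chosen as squamous markers, but neither was among the genes listed here, so they were not analysed. Alternatives were another pseudocount, other filters and scalings, a replicate block, other variance estimates, summed transcripts and leaving out each library. Taking out the trend with GC content and length was chosen after seeing the data. Python 3.11.15 was used for sequences and figures.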

Additional observations from a re-analysis of the deposited data

How the results depend on the processing

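Depth is unknown, so no counting limit could be given, and the NC 1 and NC 2 libraries set most of the limits. The results on the 40 genes held under a filter of at least 1 FPKM, no filter and a mean-variance trend. With array weights, which gave NC 3 a weight of 5.59 against 0.230 for NC 1 and 0.141 for NC 2, 1327 genes were called, 1 of the 40 among them (TTK, log2 fold change 0.49, adjusted p 0.0420 by limma), and 14 of the 40 were higher and 2 lower at an unadjusted p under 0.05. BORA, CENPO and CENPH were then called too, at 0.69, 1.02 and 0.38, as were 37 transcripts, and 11 transcripts of the 40 genes had an unadjusted p under 0.05. The share of all transcripts at that level is not given for array weights, so the 11 cannot be read as an excess. The sign of the log2 fold change was the opposite under array weights for AURKB (-0.11), NUF2 (-0.0024), KIF4A (-0.063), KIFC1 (-0.026), BIRC5 (-0.20), PRC1 (-0.076) and PTTG1 (-0.027). After removal of the GC and length trend it was the opposite for CENPF (-0.040), SPC25 (-0.017), KIF11 (-0.020), KIF4A (-0.042), TPX2 (-2.48e-05), NCAPG (-0.029) and TOP2A (-0.00054), 2 genes were called, and 1 of the 40 was higher at an unadjusted p under 0.05. It was also the opposite for CENPF under quantile normalization (-0.00014), for KIF4A after scaling to a common sum (-0.0031) and for SMC2 from summed transcripts (-0.013). An ordinary linear model called 2 genes and 3 transcripts, with 1 of the 40 genes higher and 3 of their transcripts at an unadjusted p under 0.05. Summed transcripts put 1 of the 40 higher at that level, CENPA. The share of all genes at that level is not given for summed transcripts, so this 1 cannot be read as an excess. A pseudocount of 0.1 called 29 transcripts, against 5 with all libraries and a pseudocount of 1. The median of the G1/S genes was 0.11 under quantile normalization, 0.070 with array weights, 0.091 after removal of the GC and length trend, and 0.091 to 0.17 with a library left out.

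Without 1 library at a time, 1 to 7 genes and 1 to 28 transcripts were called, 0 to 9 of the 40 were higher and 0 to 1 lower at an unadjusted p under 0.05, 3 to 10 of their transcripts had one, and 19 to 37 of the 40 were above 0. The highest counts of calls came without NC 2 and the 19 without NC 1. Without NC 2, 9 of the 40 were higher and 1 lower at an unadjusted p under 0.05, against 11.2% and 10.6% of all genes. Shares of all genes at that level are not given for leaving out any other library, so those gene counts cannot be read as an excess. Leaving out each library in turn gave log2 fold changes that crossed 0, namely for AURKA -0.15 to 0.30, AURKB -0.089 to 0.20, PLK1 -0.047 to 0.26, BUB1 -0.037 to 0.37, BUB1B -0.045 to 0.23, BUB3 -0.0075 to 0.30, MAD2L1 -0.047 to 0.51, TTK -0.046 to 0.74, CENPE -0.085 to 0.46 and CENPF -0.17 to 0.17. They also crossed 0 for NUF2 -0.16 to 0.31, SPC24 -0.25 to 0.17, SPC25 -0.072 to 0.25, KIF11 -0.15 to 0.25, KIF20B -0.056 to 0.55, KIF4A -0.048 to 0.067, KIFC1 -0.0084 to 0.18, BIRC5 -0.21 to 0.26, INCENP -0.50 to 0.22 and PRC1 -0.041 to 0.21. The same was seen for ECT2 -0.063 to 0.61, ANLN -0.11 to 0.45, ESPL1 -0.26 to 0.031, PTTG1 -0.047 to 0.18, NCAPG -0.11 to 0.31, SMC2 -0.12 to 0.42, SMC4 -0.078 to 0.47, TOP2A -0.14 to 0.30, MKI67 -0.11 to 0.43 and HMMR -0.043 to 0.38. Without crossing 0, the values ran for CDC20 0.16 to 0.31, UBE2C 0.087 to 0.25, CENPA 0.13 to 0.19, NDC80 0.051 to 0.40, TPX2 0.0079 to 0.086, KIF2C 0.14 to 0.26, KIF20A 0.071 to 0.39, KIF23 0.035 to 0.45, CDCA8 0.13 to 0.58, NCAPH 0.031 to 0.22, BORA 0.38 to 0.97, CENPO 0.29 to 0.69, CENPH 0.29 to 0.49 and KIF2C-201 2.05 to 4.54. In all of these the cause was not tested, beyond the smaller number of libraries. Whether the replicate numbers pair the samples cannot be decided from 3 libraries per group. The correlations of same-numbered deviations were 0.345, 0.282 and -0.0614. NC 1 and NC 2 each correlated best with the FGL1-OE library of the same number, whereas NC 3 correlated best with FGL1-OE 1 (0.111). With the replicate block 0 transcripts and 1 gene were called, 7 transcripts of the 40 genes had an unadjusted p under 0.05, and 0 of the 40 genes had one. Shares of all transcripts are not given for the block or for leaving out a library. Those transcript counts cannot be read as an excess.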
